A study of Rattus norvegicus with 6 samples.

Results

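The genes examined here encode SNARE proteins and the proteins of the synaptic vesicle that work with them. They were chosen by name, as every gene of the syntaxin (*Stx*), VAMP (*Vamp*), SNAP-25 (*Snap*), synaptotagmin (*Syt*), complexin (*Cplx*), synapsin (*Syn*), *Sv2*, *Rab3* and *Rims* families, together with *Syp* and *Snap91*, whose symbol fits the same pattern. The rule found 61 of the 17337 gene names in the expression tables. By their textbook roles, 18 of them were placed in a general trafficking class and 31 in a neuron-specific class, and 12 were not assigned to either. The class names are conventional, since genes such as *Vamp2* and *Rab3a* are also used by other secretory cells.

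Cortical neural progenitors were taken from Sprague Dawley rats at embryonic day 14, grown with bFGF and EGF at 20 ng/ml each and collected after the second passage. PolyA-selected RNA of 2 biological replicates, A and B, was sequenced as 2 technical libraries each (A1, A2, B1 and B2). There was 1 condition and no treatment, so the comparisons below are between genes and between the replicates, and no test between groups was possible. The 2 Start-seq samples of the series were not analysed here. Whether A and B came from separate litters is not given in the labels. In bulk RNA, fewer cells of a type and less RNA per cell cannot be told apart.

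Membrane fusion inside cells is driven by SNARE proteins. A VAMP on the vesicle pairs with a syntaxin and a SNAP-25 family protein on the target membrane, and the bundle they form pulls the membranes together. Most pairs of this kind serve the endoplasmic reticulum, the Golgi, endosomes and the cell surface in every cell. Neurons use a dedicated set, which includes VAMP2 and SNAP-25, and add synaptotagmins as calcium sensors, complexins as clamps, and Rab3 and RIM proteins that bring vesicles to the release site.

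The level of each gene is given as FPKM, the fragments scaled to transcript length and library depth, which allows genes of different length to be compared. The number of reads per library is not in the tables. The mean coverage that corresponded to 1 FPKM was between 22.7 and 24.4 in A1, A2 and B1 and 6.83 in B2, so library B2 was the shallowest, at 28.1% of the depth of B1. All 8 progenitor markers examined, including *Sox2*, *Nes* and *Pax6*, were above 1 FPKM, as the label of the cells implies. Markers of other cells were also present, although bulk RNA cannot show which cells expressed them. Of all gene names, 60.5% reached 1 FPKM. All 5 astrocyte markers (*Gfap* 571 FPKM), 5 of 6 oligodendrocyte lineage markers (*Olig1* 282 FPKM, but not *Sox10* at 0.258 FPKM) and 8 of 10 neuronal markers (*Tubb3* 118 FPKM) reached 1 FPKM. So did all 9 mesenchymal markers, whose summed FPKM was between 643 and 662 in the libraries of A and between 2485 and 3005 in those of B. None of the 4 endothelial and 4 microglial markers had a mean of 1 FPKM over the replicates, although *Aif1* reached 1.20 FPKM and *Cdh5* 1.002 FPKM in B2.

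Promoter sequences are shown for 6 members: *Stx4* and *Vamp2*, the leading genes of the general and the neuron-specific class, and the 4 genes counted below as differing between the replicates. They are RefSeq sequences of the GRCr8 assembly, from 250 bases before to 50 bases after the annotated start, written 5′ to 3′ on the strand of the gene. Capitals mark GGGCGG, the core of the GC box that Sp1 binds, on either strand (CCGCCC when it lies on the opposite strand), and neighbouring matches may overlap.
Vamp2 (chr10:54292539-54292838, plus strand): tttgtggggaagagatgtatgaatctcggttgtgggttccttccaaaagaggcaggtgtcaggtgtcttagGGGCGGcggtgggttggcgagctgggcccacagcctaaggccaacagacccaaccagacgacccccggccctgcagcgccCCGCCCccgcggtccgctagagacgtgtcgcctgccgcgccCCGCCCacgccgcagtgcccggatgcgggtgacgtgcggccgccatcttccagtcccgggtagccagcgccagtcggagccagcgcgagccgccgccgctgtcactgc
Stx4 (chr1:191881817-191882116, plus strand): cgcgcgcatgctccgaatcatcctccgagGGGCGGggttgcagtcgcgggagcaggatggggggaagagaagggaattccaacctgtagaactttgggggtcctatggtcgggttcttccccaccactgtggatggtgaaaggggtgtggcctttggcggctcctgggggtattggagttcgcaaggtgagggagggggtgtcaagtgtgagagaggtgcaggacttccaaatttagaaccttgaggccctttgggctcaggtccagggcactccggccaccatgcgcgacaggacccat
Vamp5 (chr4:105993198-105993497, minus strand): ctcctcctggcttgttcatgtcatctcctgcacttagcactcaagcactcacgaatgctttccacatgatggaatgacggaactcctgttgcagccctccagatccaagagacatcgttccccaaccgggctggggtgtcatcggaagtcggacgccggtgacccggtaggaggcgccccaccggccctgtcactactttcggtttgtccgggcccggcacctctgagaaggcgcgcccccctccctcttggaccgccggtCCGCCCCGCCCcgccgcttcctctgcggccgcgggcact
Vamp8 (chr4:106005593-106005892, minus strand): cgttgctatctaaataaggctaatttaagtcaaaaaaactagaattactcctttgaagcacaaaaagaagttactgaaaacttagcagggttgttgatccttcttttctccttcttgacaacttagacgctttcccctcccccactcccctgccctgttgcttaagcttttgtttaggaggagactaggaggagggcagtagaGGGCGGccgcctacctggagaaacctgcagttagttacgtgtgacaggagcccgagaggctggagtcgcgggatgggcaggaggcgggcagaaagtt
Rab3b (chr5:128858841-128859140, plus strand): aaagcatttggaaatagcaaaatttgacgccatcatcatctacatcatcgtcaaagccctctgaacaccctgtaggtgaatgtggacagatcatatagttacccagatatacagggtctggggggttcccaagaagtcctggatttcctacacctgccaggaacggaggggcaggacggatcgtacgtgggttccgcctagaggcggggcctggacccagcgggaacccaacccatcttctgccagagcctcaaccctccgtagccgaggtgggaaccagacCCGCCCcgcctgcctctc
Stx16 (chr3:183271821-183272120, plus strand): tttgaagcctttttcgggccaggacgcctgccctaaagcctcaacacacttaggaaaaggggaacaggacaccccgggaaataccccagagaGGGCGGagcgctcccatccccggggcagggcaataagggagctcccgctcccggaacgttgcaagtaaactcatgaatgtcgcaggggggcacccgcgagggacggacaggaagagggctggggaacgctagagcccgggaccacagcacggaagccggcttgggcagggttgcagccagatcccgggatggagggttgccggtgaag
A RefSeq promoter was matched by symbol for 47 of the 61 members. Those without a sequence include *Snap25*, *Snap91*, *Vamp3*, *Vamp7*, *Rims2*, *Rims4*, *Syn3*, *Syt5*, *Syt7*, *Syt10*, *Syt12*, *Syt13* and *Syt17*. The 6-base motif was present in 35 of the 47 (74.5%), against 33.1% of all 33469 promoters in the table. That background was not restricted to expressed genes. Whether motif, CpG or TATA counts set the members apart from other expressed genes was not tested. The share was 12 of 16 general trafficking members and 17 of 22 neuron-specific members, so the classes did not separate by it. Members at 1 FPKM or more held it in 27 of 32 cases, and members below 1 FPKM in 8 of 15. CpG dinucleotides numbered 19 in the median member promoter, with a median of 21.5 in the general and 18.5 in the neuron-specific class, against a median of 7 over all promoters. The TATA box letters TATAAA, on either strand, were found in the promoter of 1 member, *Stx19*, against 14.2% of all promoters. Among the promoters printed, *Vamp8* had the fewest CpG, 9, while its neighbour *Vamp5* had 25, *Vamp2* 31, *Stx16* 19, *Stx4* 14 and *Rab3b* 13.

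Of the 61 members, 41 had a mean of at least 1 FPKM, which is 67.2% and stands against 60.5% of all gene names. The general trafficking genes were nearly all expressed and the neuron-specific ones were split, as 17 of 18 and 18 of 31 reached this level. Of the genes without a class, 6 of 12 did. Among the 41, 37 were at or above 1 FPKM in both replicates. *Syn2*, *Syt13* and *Syt17* passed only through replicate B and *Cplx1* only through replicate A. No member had a mean between 0.843 FPKM (*Syt12*) and 1.18 FPKM (*Syn2*), the values nearest to the threshold.

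The median general trafficking gene stood at 23.2 FPKM and the median neuron-specific gene at 1.76 FPKM, a ratio of 13.2. In replicate A the general median was 22.2 FPKM and the neuron-specific median 2.29 FPKM, and in replicate B they were 27.1 and 1.43 FPKM. The ratio was therefore 9.71 in A and 18.9 in B, above 1 in both, with a size that varied between the replicates. Restricted to members of at least 1 FPKM the ratio was 5.69, as 13 neuron-specific genes and 1 general gene then drop out. The median over all gene names was 3.83 FPKM, between the medians of the classes. *Stx3*, which serves the apical surface of epithelial cells and ribbon synapses, was the 1 general gene below the neuron-specific median, and *Vamp2* was the 1 neuron-specific gene above the general median.

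Neuron-specific genes contributed 18.2% of the summed FPKM of the members, 20.1% in replicate A and 16.3% in replicate B. *Vamp2* alone made up 37.2% of the neuron-specific sum. Without it, the other neuron-specific genes gave 11.4% of the FPKM of all members. General trafficking genes gave 67.8%, and *Stx4* and *Vamp3* together made up 40.8% of that. The unassigned genes gave 14.0%, of which *Rab3b*, *Vamp5* and *Syt11* supplied 93.7%.

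Among the syntaxins, the plasma membrane form *Stx4* was the highest, and it was the highest of all members. *Stx4* measured 151 and 115 FPKM in A1 and A2 and 170 and 129.1 FPKM in B1 and B2, a mean of 141 ± 11.7 FPKM (SD, n = 2). Its technical libraries were farther apart than its replicate means. Next came *Stx5*, the syntaxin of the Golgi, at 47.3 and 51.2 FPKM in A and 59.4 and 49.0 FPKM in B. Its libraries lay below all those of *Stx4*, 2.73-fold lower by the means, and overlapped those of *Stx16*. *Stx12*, an endosomal syntaxin, was at 42.3 and 45.6 FPKM in A and 46.4 and 42.0 FPKM in B, with no gap between the replicates. The endosomal and Golgi forms *Stx6*, *Stx7* and *Stx8* and the endoplasmic reticulum form *Stx18* had means between 27.3 and 29.7 FPKM. The gaps among these 4 were within the spread of the libraries. *Stx2* had a mean of 16.4 FPKM and *Stx17*, which acts in autophagosome fusion, of 5.87 FPKM.

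*Stx1a*, a syntaxin of the synapse, lay below *Stx2* and overlapped *Stx17*. It measured 11.0 and 9.30 FPKM in A and 9.35 and 7.41 FPKM in B, a mean of 9.26 ± 1.25 FPKM (SD, n = 2). *Stx4* was 15.3-fold higher by the means, and between 12.4-fold and 18.2-fold higher in the single libraries. In rn6, *Stx4* occupies chromosome 1 from 199287895 to 199294979 (plus strand). *Stx11* and *Stx19*, which lack a transmembrane segment, had means of 0.373 and 0.814 FPKM.

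Among the VAMPs, which sit on the vesicle side, a general gene led and by the means a neuron-specific gene, *Vamp2*, followed. That second place did not hold in both replicates. The unassigned *Vamp5* lay below *Vamp2* in A, at 20.7 and 21.4 FPKM, and above it in B, at 69.2 and 83.8 FPKM. *Vamp3*, or cellubrevin, the VAMP of recycling endosomes, measured 105 and 114 FPKM in A and 111 and 108 FPKM in B, a mean of 109 ± 0.105 FPKM (SD, n = 2). Its replicate means were nearly equal, closer than its technical libraries were. *Vamp2*, the VAMP of synaptic vesicles, measured 68.0 and 68.8 FPKM in A and 54.0 and 55.3 FPKM in B, a mean of 61.5 ± 9.70 FPKM (SD, n = 2). Every library of *Vamp2* lay below every library of *Vamp3*, and both libraries of B lay below both of A. With *Vamp3* at only 1.78-fold the level of *Vamp2*, the gap between the general and the neuronal gene was far smaller than between *Stx4* and *Stx1a*. *Vamp1*, the other synaptic VAMP, was at 6.91 ± 3.50 FPKM (SD, n = 2). *Vamp4* of the trans-Golgi network had a mean of 16.6 FPKM and *Vamp7* of late endosomes and lysosomes of 7.16 FPKM. In rn6, *Vamp2* occupies chromosome 10 from 55675537 to 55679405 (plus strand) and *Vamp3* chromosome 5 from 168126157 to 168136628 (minus strand).

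In the SNAP-25 family the 3 general forms were listed above the neuronal one. *Snap29* had a mean of 17.7 FPKM, *Snap23*, the ubiquitous plasma membrane form, of 12.7 FPKM, and *Snap47* of 11.0 FPKM. *Snap23* measured 12.3 and 12.8 FPKM in A and 11.7 and 14.0 FPKM in B, and its spread overlapped that of *Snap47*. *Snap25*, the synaptic form, was listed at 8.17 and 9.02 FPKM in A and at 5.27 and 5.24 FPKM in B, so that *Snap23* was 1.84-fold higher by the means.

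The FPKM of *Snap25* was at odds with its own coverage. In each library the coverage and the FPKM of nearly all genes stood in 1 ratio, and by that ratio the coverage of *Snap25* corresponded to 0.280 and 0.309 FPKM in A and 0.180 and 0.179 FPKM in B. The listed FPKM was 29.2-fold above it. On the coverage scale *Snap25* would fall below 1 FPKM and *Snap23* would be 53.7-fold higher. *Rims2* showed the same kind of gap, with a listed mean of 2.29 FPKM against 0.452 FPKM from coverage, and *Syn2* a small one, 1.18 against 1.05 FPKM. These were the 3 members off by more than 1.1-fold on average, *Syn2* not in every library. In the whole tables between 2.67% and 2.83% of the rows above 0 were off by this much, and between 34 and 40 rows per library had an FPKM over 5-fold that of the coverage. The cause was not tested. With *Snap25* and *Rims2* set to their coverage, 39 members instead of 41 reached 1 FPKM and the ratio of the class medians was 19.7. With *Syn2* set to it as well, the count was also 39 and the ratio 22.1.

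**Figure D1:**
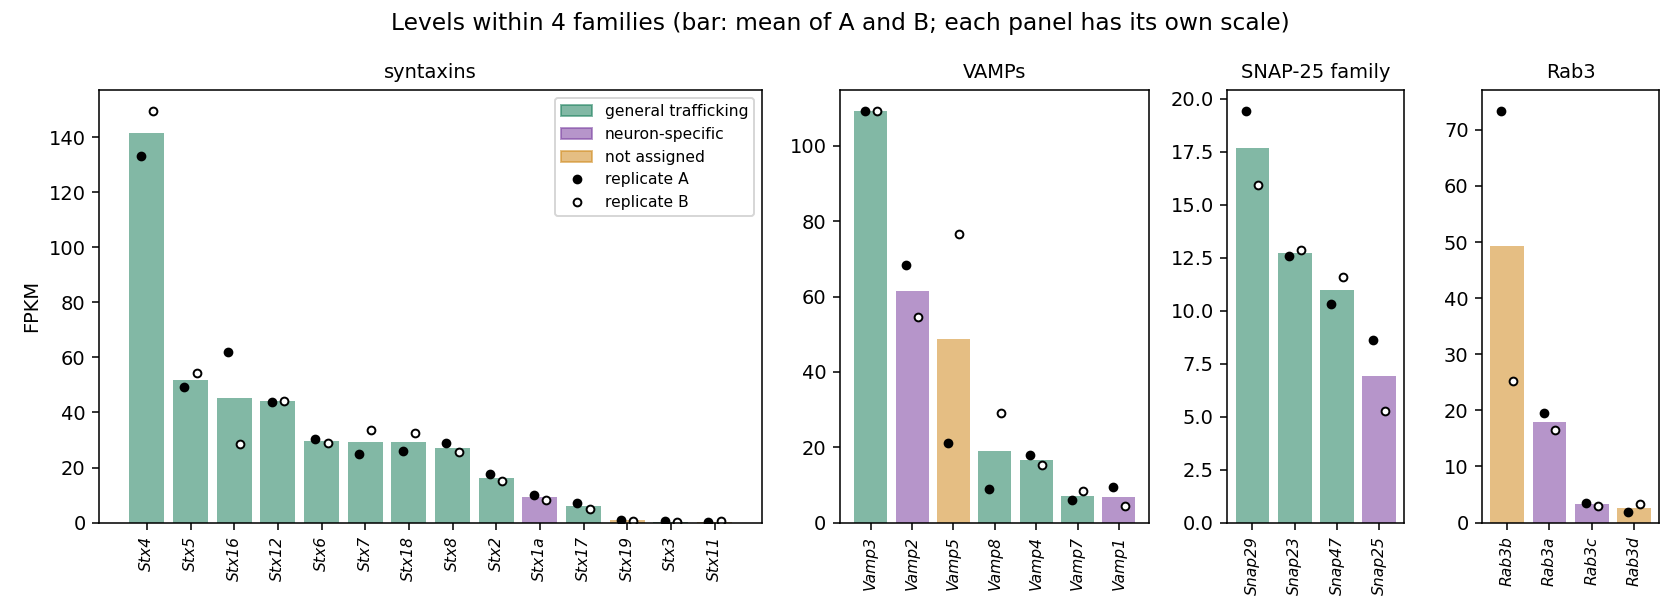
Level of genes in the syntaxin, VAMP, SNAP-25 and Rab3 families in FPKM, with a separate scale for each panel. Bars are the mean of the 2 biological replicates, filled points are replicate A and open points replicate B, and colours give the class. *Stx4* at 141 FPKM and *Vamp3* at 109 FPKM lead their families, and *Rab3b*, *Vamp5* and *Stx16* have the points of A and B farthest apart.

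**Figure D2:**
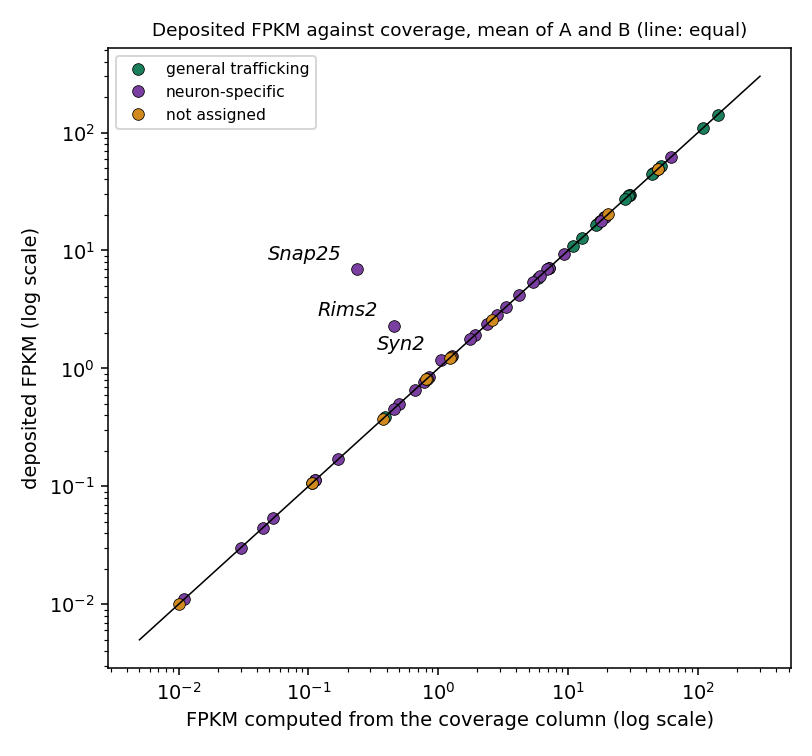
Deposited FPKM of each member against the FPKM that its coverage corresponds to, both as the mean of A and B on log scales, with a line where they are equal. *Snap25*, listed at 6.92 FPKM against 0.237 FPKM from coverage, and *Rims2* stand above the line, and the other members lie on it or close to it.

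A pair of synaptotagmins held most of the FPKM of their family. *Syt11*, which does not bind calcium, measured 24.7 and 23.7 FPKM in A and 13.4 and 19.9 FPKM in B. *Syt5*, a calcium-binding form, measured 20.7 and 22.3 FPKM in A and 13.9 and 19.6 FPKM in B. Their libraries overlapped, and together they held 41.1% and 38.5% of the summed FPKM of the 15 synaptotagmins. *Syt1*, the main sensor of fast release in cortical neurons, had a mean of 1.76 ± 0.934 FPKM (SD, n = 2), and *Syt5* was 10.9-fold above it. *Syt3*, *Syt13* and *Syt17* were between 1.23 and 2.37 FPKM. *Syt17* measured 0.791 and 0.939 FPKM in A and 1.64 and 1.66 FPKM in B. The other 9 synaptotagmins, including *Syt2*, *Syt4*, *Syt7* and *Syt9*, had means between 0.0100 and 0.843 FPKM.

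*Cplx2* made up 80.4% of the complexin FPKM with a mean of 5.39 ± 2.21 FPKM (SD, n = 2), and *Cplx1* followed at 1.27 FPKM. The retinal complexins *Cplx3* and *Cplx4* were at 0.0110 and 0.0302 FPKM. *Rab3a*, the main Rab3 of synaptic vesicles, measured 19.0 and 19.9 FPKM in A and 18.8 and 14.1 FPKM in B. *Rab3c* had a mean of 3.31 FPKM. *Rab3d* of exocrine and mast cells measured 1.65 and 2.13 FPKM in A and 1.81 and 4.71 FPKM in B, and only B2 stood apart. Among the RIM genes, whose proteins organise the active zone, only *Rims2* was above 1 FPKM, by its listed value, and *Rims1*, *Rims3* and *Rims4* were between 0.112 and 0.502 FPKM.

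The synapsin, *Sv2*, *Snap91* and *Syp* genes, whose proteins reside on or coat the synaptic vesicle, had means of 7.11 FPKM or less. *Syn1*, which tethers vesicles to each other, measured 6.95 and 7.61 FPKM in A and 6.13 and 7.76 FPKM in B, a mean of 7.11 ± 0.237 FPKM (SD, n = 2). *Syn2* and *Syn3* were at 1.18 and 0.772 FPKM. *Sv2a*, the binding site of levetiracetam, was at 6.05 ± 1.34 FPKM (SD, n = 2) and made up 92.3% of the *Sv2* FPKM. *Snap91*, the clathrin adaptor AP180, was at 4.19 FPKM and synaptophysin, *Syp*, at 1.91 FPKM. The synapsin genes each contain a *Timp* gene on the other strand. *Timp1* within *Syn1* had a mean of 104 FPKM, *Timp4* within *Syn2* of 20.8 FPKM and *Timp3* within *Syn3* of 19.9 FPKM, and *Syn1* also overlaps *Araf* at 55.9 FPKM. Whether the counting used strand is not stated, so reads from exon sequence that overlapping genes share cannot be told apart. How much exon sequence they share was not tested. The same limit holds for *Rab3a* beside *Mpv17l2* (56.9 FPKM), *Cplx1* beside *Dr1* (23.9 FPKM) and *Stx19* beside *Arl13b* (21.3 FPKM).

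Of the 61 members, 57 were above 0 in every library. *Syt8* was listed at 0 in A1 and B2, *Cplx4* and *Syt6* in B2 and *Syt2* in B1, and no member was at 0 in all 4 libraries. Because the tables hold no counts, no limit can be set on these zeros.

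The replicates were then compared gene by gene. A gene was counted as differing when its mean was at least 1 FPKM, its replicate means were 1 or more apart in log2(FPKM + 1), a scale that shrinks the changes of low genes, and the libraries of A and B did not overlap. By this rule 4 of the 41 members (9.76%) differed, against 6.2% of the 10481 genes of that level. *Vamp5* and *Vamp8* were higher in B, where 4.78% of all genes were counted, and *Rab3b* and *Stx16* were lower in B, where 1.42% were counted. In either direction 2 members are 4.88% of the 41, near the background for higher genes and above it for lower genes, and the counts are too small to read further.

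*Vamp5*, or myobrevin, a VAMP known from muscle, measured 20.7 and 21.4 FPKM in A and 69.2 and 83.8 FPKM in B. Both libraries of B were far above both of A, by 1.82 on the log2 scale or 3.64-fold. *Vamp8*, or endobrevin, which acts in late endosomes and regulated secretion, measured 8.53 and 9.34 FPKM in A and 12.7 and 45.6 FPKM in B. Its log2 difference of 1.60 rested on B2, as it was 0.46 without that library and then no longer counted. *Rab3b*, a Rab3 form known from endocrine and epithelial cells, measured 68.4 and 78.4 FPKM in A and 23.2 and 27.3 FPKM in B, 2.91-fold lower in B, with a log2 difference of -1.50. *Stx16*, a syntaxin of the trans-Golgi network, measured 71.2 and 52.9 FPKM in A and 33.4 and 24.1 FPKM in B, a log2 difference of -1.08. It too fell short of the rule without B2, at -0.87, and without A1, at -0.86, while *Vamp5* and *Rab3b* were counted with any 1 library left out.

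**Figure D3:**
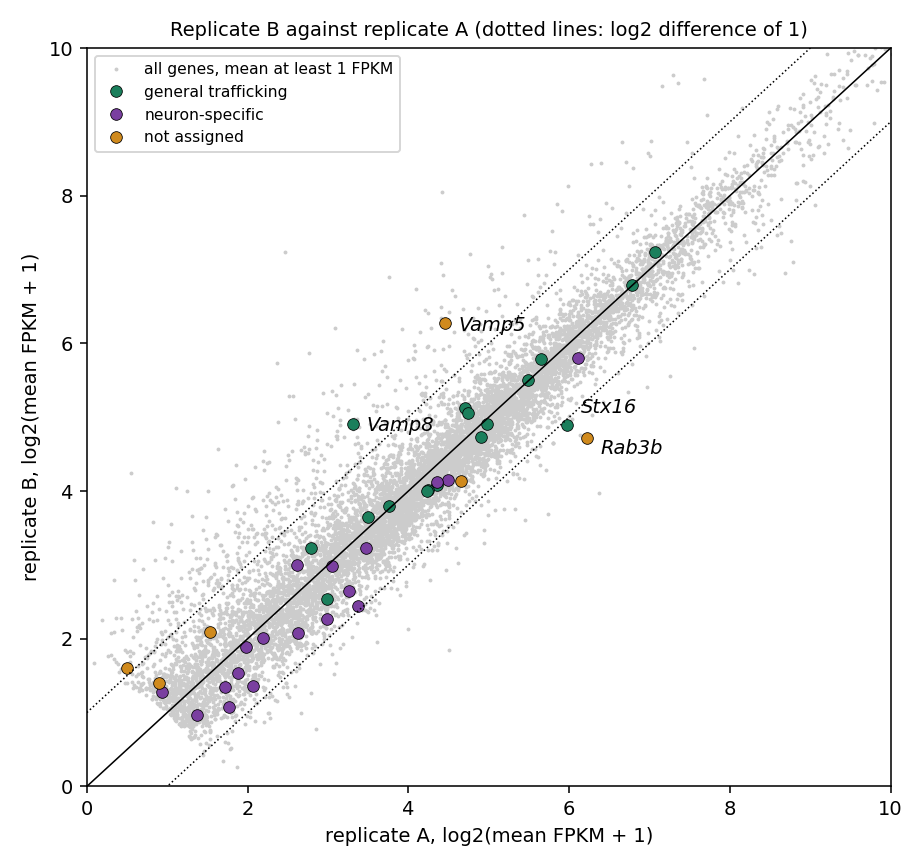
Mean level in replicate B against replicate A as log2(mean FPKM + 1), with all genes that reached 1 FPKM on average in grey and the 41 members of that level in colour by class. The solid line marks equal levels and the dotted lines a log2 difference of 1, and the axes end at 10. *Vamp5* and *Vamp8* lie above the upper dotted line, as does *Syt13*, whose libraries overlapped, *Rab3b* and *Stx16* below the lower one, and most neuron-specific genes lie slightly below the solid line.

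*Vamp5* and *Vamp8* lie next to each other on the minus strand of chromosome 4 of rn6, at 100231561 to 100232560 and 100250301 to 100252756, with 17740 bases and no listed gene between them. The replicate means of the genes around the pair differed less. On the *Vamp5* side, *Rnf181* differed by 0.55, *Tmem150a* by 0.31 and *Usp39* by -0.01 on the log2 scale. The value of *Rnf181* rested on B2, as it was 0.10 without that library and 0.90 without B1. On the *Vamp8* side, *Ggcx* differed by 0.40 and *Mat2a* by -0.53. These values also moved with single libraries, to 0.23 for *Ggcx* without B2, -0.33 for *Mat2a* without A1 and 0.15 for *Tmem150a* without B1. In the same build *Rab3b* occupies chromosome 5 from 128501833 to 128568167 and *Stx16* chromosome 3 from 172155496 to 172182855, both on the plus strand.

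**Figure D4:**
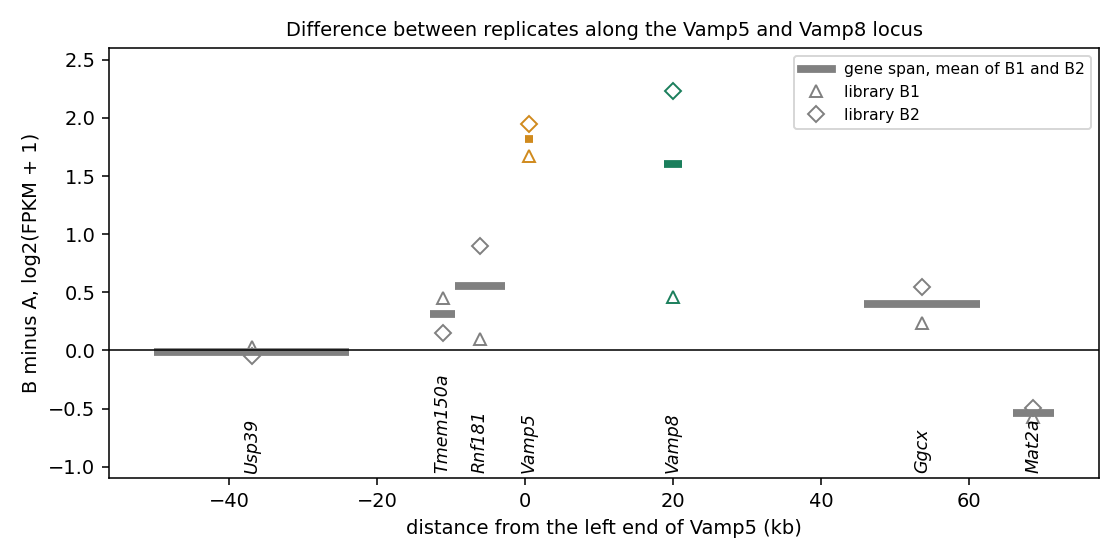
Difference between replicates B and A on the log2(FPKM + 1) scale for *Vamp5*, *Vamp8* and 5 listed neighbours, by distance in kilobases from the left end of *Vamp5*. Bars span each gene at the difference of the mean of B1 and B2 from the mean of A, and triangles and diamonds give B1 and B2 alone. *Vamp5* is high in both libraries, *Vamp8* mainly in B2 (2.23 against 0.46), and the bars of the neighbours lie between -0.53 and 0.55, with *Rnf181* at 0.90 in B2.

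Smaller differences leaned one way for the neuron-specific genes. Over the 41 members the median log2 difference of B from A was -0.18, and over all genes of that level it was -0.03. It was 0.01 for the 17 general and -0.35 for the 18 neuron-specific genes. Both libraries of B lay below both of A for 18 of the 41 members, against 32.0% of all genes, and above both for 9, against 28.1%. Of the 18 neuron-specific genes, 12 lay wholly below and 2, *Sv2a* and *Syn2*, wholly above. Among the 16 that reached 1 FPKM in both replicates, 11 lay below and 1 above. Of the 17 general genes, 4 lay below and 5 above. With a lower limit of 0.58 on the log2 difference, 9 members were counted, against 16.5% of all genes, and the 5 added genes were *Cplx2*, *Snap25*, *Syt1*, *Syt3* and *Vamp1*, all neuron-specific and lower in B. *Cplx2* fell short of this limit without A1 (-0.33) or B2 (-0.57), and *Snap25*, whose coverage corresponds to less than 1 FPKM, without A2 (-0.55).

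Some markers of cell types differed between the replicates too. All 9 mesenchymal markers were higher in both libraries of B than in either of A, and 8 of the 9 met the counting rule (*Foxc2* not without B2, at 0.62), with *Col1a2* at a log2 difference of 2.34. Of the 10 neuronal markers, 4 lay below in both libraries of B and 1 above, while 5 had a higher mean in B, and *Elavl4* met the rule at -1.07 (-0.98 without A2), while *Tubb3* differed by -0.17. Of the 8 progenitor markers, 4 lay below in both libraries of B and 0 above, and 3 had a higher mean in B. *Fabp7* and *Hes5* met the rule at -1.56 and -1.14. Of the 6 oligodendrocyte lineage markers, 3 lay above and 2 below, and *Pdgfra* and *Olig1* met the rule at 2.55 and 1.05. *Olig1* no longer did without A1 (0.96) or B1 (0.37). Of the 5 astrocyte markers, 1 lay above and 2 below, while 3 had a higher mean in B, and *S100b* met the rule at -1.12, though not without B2 (-0.92). The part of these cell types in the differences of *Vamp5*, *Rab3b* and the neuron-specific genes was not tested.

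The technical libraries set the scale of these differences. Between A1 and A2 no member of at least 1 FPKM differed by 1 on the log2 scale, against 0.153% of all genes. Between B1 and B2 it was 3 members, *Vamp8*, *Rab3d* and *Syt13*, against 2.8% of all genes, and all 3 were higher in the shallow library B2. *Syt13* measured 0.487 and 0.345 FPKM in A and 0.264 FPKM in B1 but 3.82 FPKM in B2. Some markers of cell types at high levels differed between B1 and B2 as well. *Gfap* measured 419 and 904 FPKM, *Foxc1* 29.4 and 115 FPKM and *Olig1*, in the other direction, 523 and 237 FPKM. *Pdgfra* was nearly equal, at 59.5 and 59.4 FPKM. The mean of B averages over these gaps, and their cause was not tested.

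Proteins that work with the SNAREs were examined in 5 lists of other genes. As a background, 60.5% of all gene names reached 1 FPKM. In the list of the disassembly enzymes and SNARE-binding regulators, 11 of 14 genes reached 1 FPKM, led by *Napa*, which encodes alpha-SNAP, at 93.9 FPKM and *Scfd1* at 28.3 FPKM. Further general SNAREs were all expressed, 10 of 10, led by *Use1* at 147 FPKM and *Bet1* at 58.7 FPKM, with a median of 24.4 FPKM beside the 23.2 FPKM of the general members. Priming and active zone genes resembled the neuron-specific members, with 9 of 17 at 1 FPKM and a median of 1.15 FPKM, and their highest were *Ppfia1* at 14.5 FPKM and *Unc13a* at 6.93 FPKM.

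Vesicular transporters and membrane proteins reached 1 FPKM in 12 of 20 cases. The highest were the secretory carrier proteins *Scamp3* at 67.0 FPKM and *Scamp4* at 44.6 FPKM. The glutamate transporters of synaptic vesicles, *Slc17a6* and *Slc17a7*, were at 0.152 and 0.0965 FPKM, while *Slc32a1*, which loads GABA, was at 3.38 FPKM and *Slc18a2*, which loads monoamines, at 3.80 FPKM. Genes of vesicle recycling were all above 1 FPKM, 12 of 12, led by *Sh3gl1* at 125 FPKM and *Bin1* at 44.8 FPKM. Over the 5 lists 1 gene, the dynamin *Dnm3*, met the rule for a difference between the replicates, at 2.20 and 2.06 FPKM in A and 6.27 and 5.18 FPKM in B. This is 1.85% of the 54 partner genes of at least 1 FPKM, against 6.2% of all genes, and its log2 difference fell short of 1 without B1, at 0.98.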

How the data were processed

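PolyA RNA-seq libraries A1, A2, B1 and B2 were grouped into biological replicates A and B by the sample labels. Per the labels and the methods, the authors trimmed reads, aligned them to rn6 and made tables in the layout of StringTie (processing notes also name cutadapt, HISAT and STAR, and the methods name Rsubread and DESeq2 for FPKM). The FPKM, TPM and coverage values were used as deposited by the authors. TPM sums to 1000000 in each library, and coverage is not scaled for depth. The number of reads is not given in the tables, so intervals for counting error could not be set.

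Rows sharing a gene name were added together, although each member had 1 row. Technical libraries were averaged within A and B, and means and SDs are over these 2 replicates. With 1 condition no test was made. Differences are on the log2(FPKM + 1) scale with a pseudocount of 1. The FPKM of the coverage is the coverage divided by the median ratio of coverage to FPKM in that library. Coverage gaps were counted beyond 1.1-fold.

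The members, classes and lists were chosen with earlier results of these data known. Given in full are the 5 genes with the highest mean of each class, the genes counted as differing, and the pairs *Snap25* and *Snap23*, *Vamp2* and *Vamp3*, and *Stx1a* and *Stx4*, and of each list of partner genes the 2 highest. *Rims2*, *Syn2*, *Syt13*, *Dnm3* and the vesicular transporters, and the neighbours and overlapping genes, were named after their values were seen. *Sec22c*, *Vti1b*, *Cadps2* and *Itsn2* were not used here. Some genes that enter the counts and medians are not reported or drawn singly here.

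The counting was run on simulated data as a check of the code, and no result here rests on it. Alternatives were other thresholds, a pseudocount of 0.1, TPM, median-of-ratios scaling, other class assignments and leaving out replicates or libraries. Python 3.11.15 with pandas 2.3.3, numpy 2.4.6 and matplotlib 3.10.9 was used.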

Additional observations from a re-analysis of the deposited data

Results flagged for a closer look

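Among 23 values examined over the 4 libraries (18 members given in full, 3 class medians, the neuron-specific share and the depth), 4 had 1 library far from the other 3. Chance flags about 1 in 20 values of independent samples, a rate that does not apply to technical pairs or to members that met the rule for a difference between the replicates. In all 4 it was B2, a technical library of the same replicate as B1. The coverage per FPKM was 6.83 in B2 and between 22.7 and 24.4 in the others. *Vamp8* was at 45.6 FPKM in B2 against 8.53 to 12.7 FPKM elsewhere, and *Rab3d* at 4.71 FPKM against 1.65 to 2.13 FPKM. The median of the unassigned members was 1.51 FPKM in B2 against 0.737 to 0.842 FPKM elsewhere. Whether the lower depth of B2 bears on *Vamp8* or *Rab3d* was not tested.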

How the results depend on the processing

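Of 76 recomputed values of 7 results, 55 stayed within the spread between the replicates, or within 1.5 times for counts. Some of the 55 could not move, so their number does not measure stability. Taking the row with the highest mean changes nothing when each member has 1 row. The coverage of neuron-specific genes cannot change the general median. Leaving out A or B moves a mean of the 2 by less than their SD. The cause of the changes beyond these limits was not tested unless the setting itself gives it. With TPM the general and neuron-specific medians were 38.8 and 2.97, which is a change of scale, and their ratio of 13.0 moved little. Restricted to members of at least 1 FPKM, the medians were 27.3 and 4.79 FPKM and the ratio 5.69. With the unassigned genes counted as general, that median was 16.5 FPKM, and with them counted as neuron-specific, that share was 32.2%. Leaving out A or B gave general medians of 22.2 to 27.1 FPKM, neuron-specific medians of 1.43 to 2.29 FPKM, ratios of 9.71 to 18.9, shares of 16.3% to 20.1% and 39 to 41 members at 1 FPKM. At 10 FPKM 21 members remained and at 0.1 FPKM 56. Between A and B, a limit of 0.58 counted 9 members, and leaving out 1 library counted 2 (without B2) to 7 (without B1), with *Vamp5* and *Rab3b* in every setting. The median difference of the members stayed below 0, at -0.14 with TPM (where all genes stood at -0.075 instead of -0.027), -0.069 without a filter, -0.23 with a pseudocount of 0.1 and -0.20 to -0.12 with 1 library left out. Chosen after seeing the data, the use of coverage for *Snap25* and *Rims2* gave a ratio of 19.7, and for *Syn2* as well a neuron-specific median of 1.05 FPKM and a ratio of 22.1, and leaving out B2 alone gave 40 members at 1 FPKM and a ratio of 12.8. No paired analysis was possible because there was 1 condition and no test. What the missing read numbers limit is every gene near 0, where a listed 0 could not be given an upper bound.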
